A study of Mus musculus with 12 samples.

Results

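Cish, Socs1, Socs2, Socs3, Pim1 and Pim2, genes that cytokines switch on in T cells, were followed in RNA-seq counts of 12 libraries made from mouse CD4 T cells that the labels call regulatory. They were chosen by symbol, but with earlier results of these data known. Each Ensembl identifier of the count table was matched to its mouse symbol, and the 6 genes were 6 of 21839 genes in it. All mice were C57BL/6 and Atg5 flox/flox, with loxP sites around both copies of this gene needed for autophagy. Mice called TG also carried CD11c Cre +/-, which removes Atg5 in cells that use the CD11c promoter, mainly dendritic cells, while mice called WT were CD11c Cre -/-. CD4+ cells from the spleen and 3 lymph node sites (inguinal, cervical, brachial) were sorted by a further surface marker and by CD25, the alpha chain of the interleukin-2 receptor. High or low CD25 gave 4 groups, WT High, WT Low, TG High and TG Low, with 3 libraries each. The labels name no stain or reporter for Foxp3, so the gates may hold other CD4 T cells. Ages and sexes are not stated in the labels. Whether replicates are separate animals is not stated, so the p-values cover the spread between these samples only, which may be technical.

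Interleukin-2 and related cytokines act through receptors whose JAK kinases phosphorylate STAT proteins, in regulatory T cells mainly STAT5. Phosphorylated STAT5 switches on genes of the SOCS family, whose proteins bind the receptor or the JAK through an SH2 domain and recruit a Cullin 5 ubiquitin ligase through a SOCS box, so that the signal dampens itself. Cish (also called CIS) and Socs2 compete for phosphotyrosines on receptors, whereas Socs1 and Socs3 carry a kinase inhibitory region that blocks JAKs. Socs3 is best known for restraining receptors of the interleukin-6 family, and Socs1 for restraining interferon-gamma and common gamma chain cytokines. Pim1 and Pim2 are serine/threonine kinases that are active once made; they are cytokine-induced but promote growth and survival, so they are read here as a second class of STAT target rather than as inhibitors.

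All 6 genes are protein coding in the GENCODE annotation of GRCm38. Cish lies on chromosome 9 at 107296026 to 107302784 (plus strand), Socs1 on chromosome 16 at 10782240 to 10785536 (minus), Socs2 on chromosome 10 at 95385362 to 95417180 (minus) and Socs3 on chromosome 11 at 117966079 to 117970047 (minus). Pim1 lies on chromosome 17 at 29490753 to 29496112 (plus) and Pim2 on the X chromosome at 7878262 to 7883432 (plus). Cish overlaps the opposite-strand genes Gm17040 and Gm17041, and Pim1 overlaps Gm26885. The library chemistry keeps no strand, so reads from these overlaps cannot be assigned to one strand.

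The element most often bound by STAT5 reads TTCNNNGAA, and it was searched on both strands in windows of 250 bases before to 50 bases after each RefSeq start (GRCm38.p6). Of 32851 such windows, 8.3% held at least 1 match and 0.457% held 2 or more. Windows were found for 5 of the 6 genes, with 2 windows for Pim1. Socs2 had no window, so its promoter could not be searched. The Cish window held 2 matches and the Socs3 window 1, and both stretches are shown because they hold the only matches found. Capitals mark the matches, written 5′ to 3′ on the gene's strand.

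Cish, chr9:107296654-107296683, plus strand: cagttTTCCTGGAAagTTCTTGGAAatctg

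Socs3, chr11:117969502-117969531, minus strand: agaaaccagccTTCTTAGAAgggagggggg

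The Cish matches lie at bases 1 to 9 and 12 to 20 counted from the RefSeq start, inside the untranslated first exon of a longer GENCODE transcript. The Socs3 match lies at -154 to -146. The windows of Socs1, Pim1 and Pim2 held no match, and none of the 5 genes' windows held the same element with 1 more base in its middle, which 6.95% of all windows did. A match describes these letters only and does not show binding.

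Total counts ran from 6767828 in TG High replicate 2 to 23942479 in WT High replicate 2, and the other libraries had at least 18161830. Each of the 6 genes had at least 343 counts in every library, so all 6 were among the 11766 genes tested. Foxp3, the defining regulatory T cell factor, ran from 983 to 1662 CPM (counts scaled to library size by the TMM method, the unit of all levels here) and Cd4 from 513 to 715 CPM, so both defining markers were present throughout. In the 4 libraries numbered 1, markers of other cells stood apart: the summed level of 10 B cell markers was 194 to 326 CPM of unscaled totals there and 33.8 to 84 CPM in the other 8 libraries. Libraries that carry the same number varied together, so edgeR was fitted both without and with that number as a block.

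Levels between genes were compared per kilobase of the longest coding transcript. Over 12 libraries Socs3 had the highest mean, 104 CPM per kb, followed by Cish at 95.6, Pim1 at 53.9, Socs1 at 53.0, Pim2 at 26.1 and Socs2 at 19.4 CPM per kb. Neighbours in this order overlapped in range: Socs3 spanned 62.1 to 181 and Cish 60.2 to 141 CPM per kb, and Pim2 spanned 20.8 to 31.6 and Socs2 9.17 to 30.5 CPM per kb. The other family members were lower, with means of 5.86 CPM per kb for Socs5, 3.91 for Socs6, 3.30 for Socs4 and 1.99 for Socs7, except Pim3 at 21.3 CPM per kb. The order among Cish, Pim1 and Socs1 depends on the length used: divided by all annotated exon bases, which for Cish include a retained intron, the means were 42.5, 43.3 and 53.0 CPM per kb. By the same division Socs2 averaged 4.53 CPM per kb, near Socs5 at 4.24, and Pim2 averaged 19.1, below Pim3 at 21.3.

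**Figure D1:**
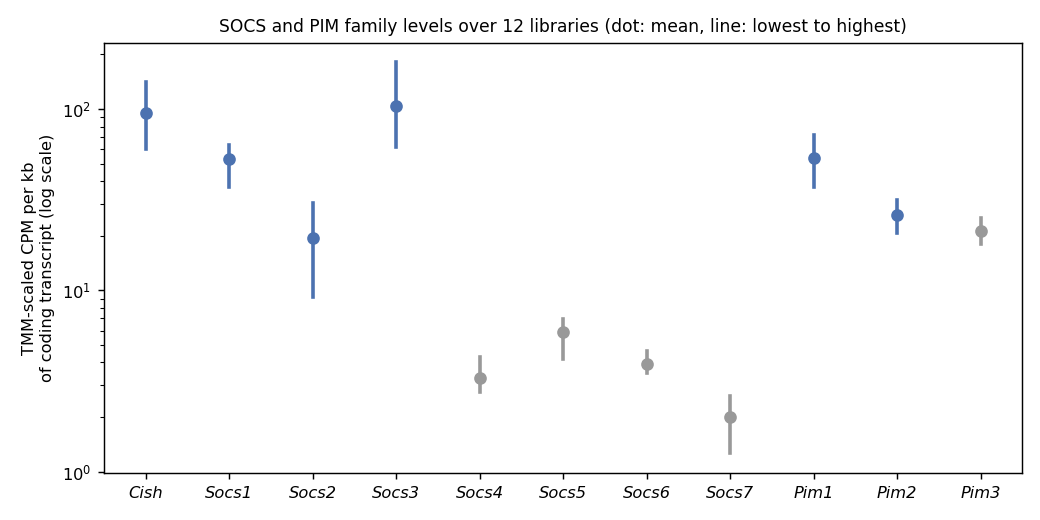
Levels of the SOCS and PIM families over 12 libraries, as TMM-scaled CPM per kilobase of the longest coding transcript on a log axis, with dots for means and lines from the lowest to the highest library. The 6 genes described here are blue, and Socs4, Socs5, Socs6 and Socs7 (grey) lie below all of them, while Pim3 (grey) lies near Pim2 and Socs2.

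CD25 High against CD25 Low. This comparison asks whether the genes go with the surface level of the interleukin-2 receptor. Socs2 was about doubled in CD25 High cells of both genotypes and Cish was raised by a smaller factor, while Socs1, Socs3, Pim1 and Pim2 did not pass the test in either genotype. Without the block edgeR called 0 of the 6 genes in WT (0.051% of all tested genes called) and 0 in TG (0.0085%), with Socs2 and Cish at an unadjusted p under 0.05 in both genotypes, and DESeq2 called Socs2 in each. With the block edgeR called 2 of 6, Cish and Socs2, in WT, where 1.63% of all genes were called and 0.994% were called higher. It called the same 2 in TG, where 1.68% were called and 0.986% were called higher. Over both genotypes 1 of 6 (Socs2) was called without the block, against 0.518% of all genes, and 2 of 6 (Cish and Socs2) with it, against 5.88%.

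Socs2 had 58.0, 49.8 and 67.7 CPM in WT High replicates 1, 2 and 3 and 20.4, 28.0 and 33.9 CPM in WT Low. In TG High it had 59.0, 52.5 and 63.4 CPM and in TG Low 26.3, 26.0 and 33.3 CPM. All 6 CD25 High libraries thus lay above all 6 CD25 Low libraries, as did those of 0.952% of tested genes. The mean was 58.5 ± 8.97 against 27.4 ± 6.76 CPM in WT and 58.3 ± 5.48 against 28.5 ± 4.14 CPM in TG (SD, n = 3 each). In the blocked edgeR fit the log2 difference was 1.10 in WT (SE 0.12, adjusted p = 8.02e-05) and 1.04 in TG (SE 0.12, adjusted p = 0.000193). Without the block edgeR gave 1.09 (SE 0.18, adjusted p = 0.0757) and 1.03 (SE 0.18, adjusted p = 0.128). Over both genotypes, 6 libraries against 6, Socs2 was 2.1-fold higher with the block (95% interval 1.86 to 2.37, edgeR adjusted p = 1.29e-06) and passed without it (log2 1.06, SE 0.13, edgeR adjusted p = 0.00434).

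Cish had 311, 314 and 401 CPM in WT High replicates 1, 2 and 3 and 172, 214 and 286 CPM in WT Low. In TG High it had 300.3, 252 and 351 CPM and in TG Low 196, 223 and 249.9 CPM. The gates did not overlap within either genotype, as in 4.49% (WT) and 4.22% (TG) of tested genes, but TG High replicate 2 lay below WT Low replicate 3. The log2 difference in the blocked edgeR fit was 0.62 in WT (SE 0.10, adjusted p = 0.00231) and 0.43 in TG (SE 0.10, adjusted p = 0.0364). Over both genotypes Cish was 1.44-fold higher (95% interval 1.3 to 1.6, edgeR adjusted p = 0.000184). Without the block the log2 difference over both genotypes was 0.52 (SE 0.13, edgeR adjusted p = 0.144), and DESeq2 without a block gave 0.52 (adjusted p = 0.00755). The TG call rested on single libraries: with the block it ended without TG High replicate 1 (edgeR adjusted p = 0.276), TG High replicate 3 (0.0847), TG Low replicate 1 (0.207), TG Low replicate 2 (0.0531) or TG Low replicate 3 (0.149). Without the 4 libraries numbered 1 the blocked log2 difference of Cish was 0.52 in WT (edgeR adjusted p = 0.0613), 0.33 in TG (0.449) and 0.43 over both genotypes (0.00931).

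The size of the gate difference varied between same-numbered pairs of libraries. For Socs2 it was 1.51, 0.83 and 1.00 on the log2 scale in WT pairs 1, 2 and 3 and 1.16, 1.01 and 0.93 in TG. For Cish it was 0.86, 0.55 and 0.49 in WT and 0.62, 0.18 and 0.49 in TG. Both genes were therefore higher in CD25 High in 6 of 6 pairs, as were 7.02% of tested genes, and the pairs numbered 1 gave the largest difference for both genes in both genotypes. The test of whether the gate difference itself differed between genotypes gave a log2 value of -0.06 for Socs2 (95% interval -0.41 to 0.29) and -0.19 for Cish (-0.49 to 0.10) with the block, with an edgeR adjusted p = 0.9997 for both.

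**Figure D2:**
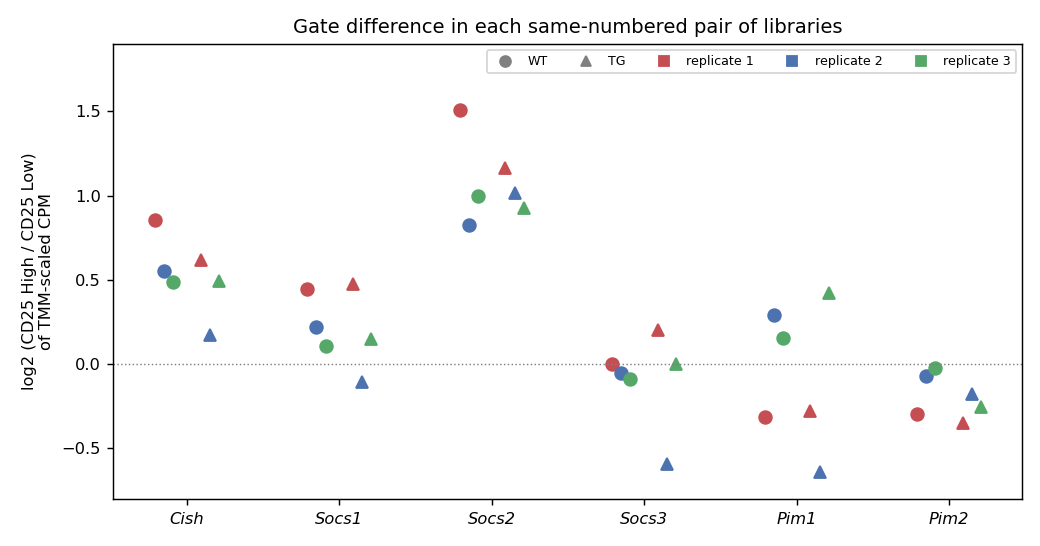
Log2 ratio of CD25 High to CD25 Low (TMM-scaled CPM) in each same-numbered pair of libraries, with circles for WT, triangles for TG and colours for the replicate number. Socs2 (0.83 to 1.51) and Cish (0.18 to 0.86) lie above 0 in 6 of 6 pairs, Pim2 lies below 0 in 6 of 6, and Socs3 and Pim1 fall on both sides.

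Socs1 had 148, 185 and 178 CPM in WT High and 108, 158 and 166 CPM in WT Low. In TG High it had 152, 151 and 175 CPM and in TG Low 109, 163 and 157 CPM. The gates overlapped in both genotypes, and the gene was higher in CD25 High in 5 of 6 pairs, the exception being TG pair 2. Over both genotypes the log2 difference was 0.20 without the block (edgeR adjusted p = 0.783) and 0.22 with it (95% interval 0.07 to 0.37, edgeR adjusted p = 0.0897), and neither passed. Leaving out TG High replicate 2, the shallowest library, brought it past the threshold (log2 0.27, edgeR adjusted p = 0.0165), and leaving out the 4 libraries numbered 1 reduced it to 0.09 (edgeR adjusted p = 0.819).

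Socs3 showed no gate difference that could be told from its spread. It had 177, 446 and 211 CPM in WT High and 177, 462 and 224 CPM in WT Low. In TG High it had 182, 237 and 272 CPM and in TG Low 159, 357 and 272 CPM. The pairs of WT libraries lay close together although the replicates ranged from 177 to 462 CPM, and the 3 WT pairs gave log2 differences of 0.0011, -0.05 and -0.09. The TG pairs gave 0.20, -0.59 and 0.0014, the largest being pair 2, which holds the shallowest library. The log2 difference over both genotypes was -0.12 without the block (edgeR adjusted p = 0.985) and -0.07 with it (95% interval -0.46 to 0.33, edgeR adjusted p = 0.891). With the block the upper bound of 0.33 lay below the 0.53 fitted for Cish. Without it the Socs3 interval was -0.85 to 0.61, which includes the 0.52 fitted for Cish. The difference between Socs3 and Cish was not tested.

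Neither Pim1 nor Pim2 passed the test between gates. Pim1 had 100.1, 170.3 and 193 CPM in WT High, 124, 139 and 173 CPM in WT Low, 118, 103 and 184 CPM in TG High and 143, 160.3 and 137 CPM in TG Low. Its gates overlapped, it was higher in CD25 High in 3 of 6 pairs, and the log2 difference over both genotypes was -0.02 without the block (edgeR adjusted p = 0.999) and -0.05 with it (95% interval -0.38 to 0.29, edgeR adjusted p = 0.917). Pim2 had 48.0, 58.6 and 45.2 CPM in WT High, 59.0, 61.4 and 45.8 CPM in WT Low, 50.7, 53.6 and 42.5 CPM in TG High and 64.5, 60.6 and 50.8 CPM in TG Low. The Pim2 gates overlapped in both genotypes, but the CD25 High library was the lower one in 6 of 6 pairs, as it was for 7.46% of tested genes. The log2 difference of Pim2 over both genotypes was -0.20 without the block (edgeR adjusted p = 0.677) and -0.19 with it (95% interval -0.33 to -0.06, edgeR adjusted p = 0.0868). Neither passed, and without the 4 libraries numbered 1 the blocked value was -0.13 (edgeR adjusted p = 0.716).

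**Figure D3:**
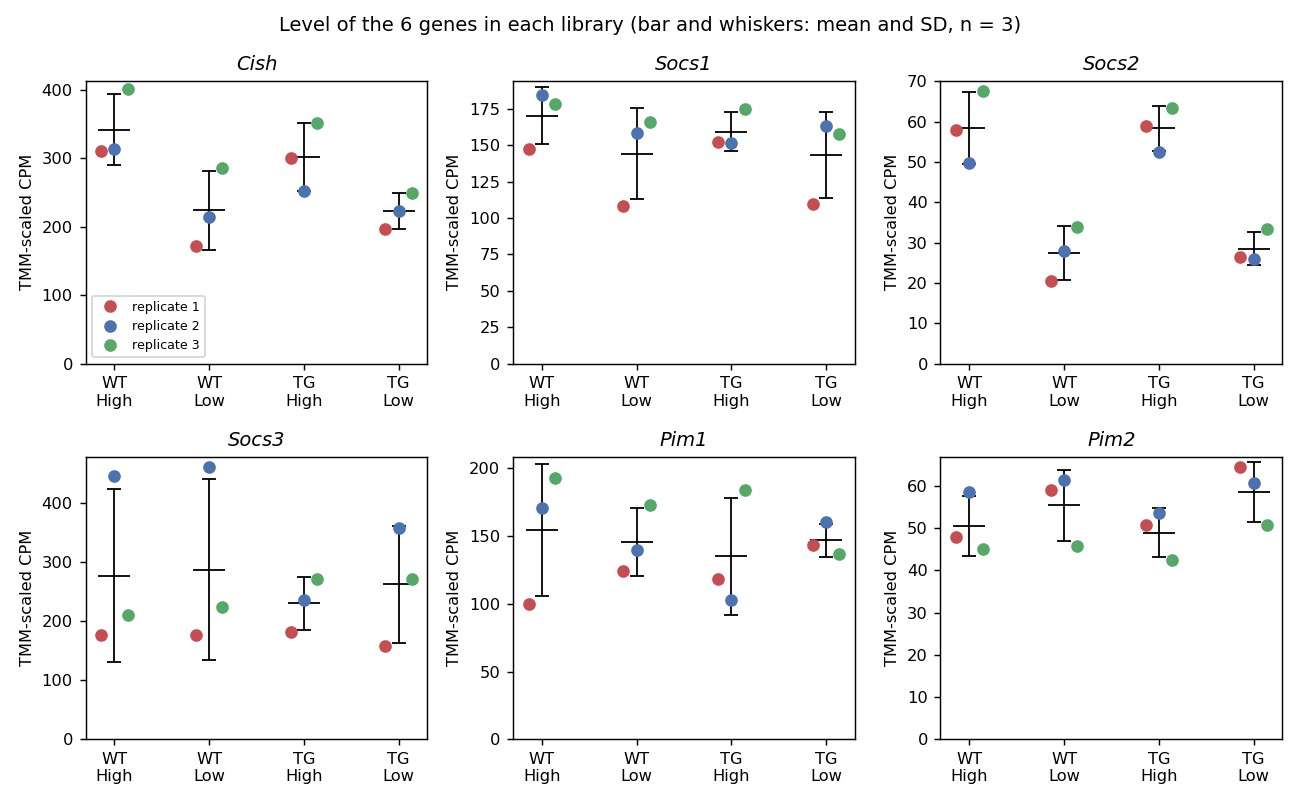
TMM-scaled CPM of each gene in the 12 libraries, coloured by replicate number, with the mean and SD of each group (n = 3). Socs2 separates all CD25 High from all CD25 Low libraries, Cish does so within each genotype, and Socs3 is highest in replicate 2 of WT High (446 CPM), WT Low (462 CPM) and TG Low (357 CPM).

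Regulatory T cell markers and some markers of other cells differed in the same contrast. The summed level of 7 regulatory T cell markers, Foxp3 and Il2ra among them, was 3868 to 4861 CPM of unscaled totals in CD25 High and 2609 to 3254 CPM in CD25 Low. Il2ra encodes the sorted CD25, so its part of this sum follows from the gate and is no finding. In bulk RNA, fewer regulatory T cells in the CD25 Low gate and less of the 7 transcripts per cell cannot be told apart. The summed B cell markers were lower in CD25 High in 3 of 3 WT pairs (for example 35.7 against 43.4 CPM in pair 2) and in 2 of 3 TG pairs, TG pair 1 having 326 against 314 CPM. Over both genotypes 0 of the 10 B cell markers were called, with or without the block. The 12 myeloid or dendritic cell markers summed to 4.46 CPM in WT High replicate 1 and 66.2 CPM in WT Low replicate 1, and to 16.7 and 124 CPM in the TG pair, against 2.57 to 4.55 CPM in the other 8 libraries. The 11 CD8 T or NK cell markers summed to 70.5 to 122 CPM in CD25 High and 58.5 to 150.1 CPM in CD25 Low, and the sum was higher in CD25 High in both pairs numbered 3. Over both genotypes with the block, where 2.63% of all tested genes were called lower, 5 of these 11 (Klrb1c, Klrd1, Klrk1, Ncr1 and Prf1) were called lower, 0 were called higher, and 5 of the 11 had positive values. In the same fit 2 of the 5 myeloid markers tested, C1qa and Csf1r, were called lower. So was 1 of 5 T cell markers, Trac, which was also called without the block. No CD8 T or NK cell marker and no myeloid marker was called without the block. Klrb1c, Klrd1, Klrk1 and Ncr1 averaged only 0.765, 0.605, 0.768 and 1.47 CPM, each with 0 counts in some library. C1qa averaged 4.35, 0.024 and 0.034 CPM in libraries numbered 1, 2 and 3, and Csf1r 9.61, 0.024 and 0.18 CPM. The dendritic cell marker Clec9a had at most 5 counts in any library. The part of these cells in the gate differences was not tested. Without the 4 libraries numbered 1 the log2 difference of Socs2 over both genotypes was 0.95 without the block (edgeR adjusted p = 0.0688), which did not pass, and 0.94 with it (edgeR adjusted p = 8.01e-05).

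TG against WT. This comparison asks whether the genes respond when dendritic cells lack Atg5. None of the 6 genes passed in CD25 High, in CD25 Low or over both gates, with or without the block in edgeR or in DESeq2, and 0 of 6 had an unadjusted edgeR p under 0.05. Across all genes edgeR called 0% in either gate, with or without the block, and 0.051% over both gates with it. At an unadjusted p under 0.05 stood 99 genes in CD25 High and 48 in CD25 Low without the block, and 418 and 382 with it, while DESeq2 with the block called 10 and 2. WT and TG libraries overlapped for each of the 6 genes in both gates, whereas TG lay wholly above WT for 1.98% and wholly below for 2.29% of tested genes in CD25 High, and for 1.58% and 1.72% in CD25 Low. The Cre is directed at CD11c-expressing cells, and whether the sorted T cells kept Atg5 intact was not tested. The Atg5 level here therefore does not test the genotype labels. It was 33.3 ± 2.08 CPM in WT High, 37.0 ± 0.579 in WT Low, 38.6 ± 4.13 in TG High and 38.6 ± 2.49 in TG Low (SD, n = 3 each).

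The intervals below are from the fit with the block; without it they were wider and all 6 also included 0. For Socs2 the blocked edgeR log2 difference over both gates was 0.03 (95% interval -0.14 to 0.21) and for Pim2 0.02 (-0.11 to 0.15). For Cish it was -0.08 (-0.23 to 0.07) and for Socs1 -0.04 (-0.19 to 0.10). Socs3 (-0.11, interval -0.51 to 0.29) and Pim1 (-0.07, interval -0.40 to 0.27) were bounded less tightly. Cish in CD25 High was lower in TG in 3 of 3 pairs, by 0.05, 0.32 and 0.19 on the log2 scale, a pattern shared with 10.8% of tested genes (blocked log2 -0.18, 95% interval -0.39 to 0.03, edgeR adjusted p = 0.999). Among the receptor, STAT, inhibitor and PIM partner genes of the lists, Il9r (log2 0.80, SE 0.13, edgeR adjusted p = 0.0484) and the chaperone Hsp90ab1 (log2 0.46, SE 0.06, edgeR adjusted p = 0.0131) were called higher in TG over both gates with the block, and none without it. Neither call held without the 4 libraries numbered 1, where edgeR with the block called 0 of all genes. Il9r averaged 24.7, 6.69 and 1.56 CPM in libraries numbered 1, 2 and 3.

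**Figure D4:**
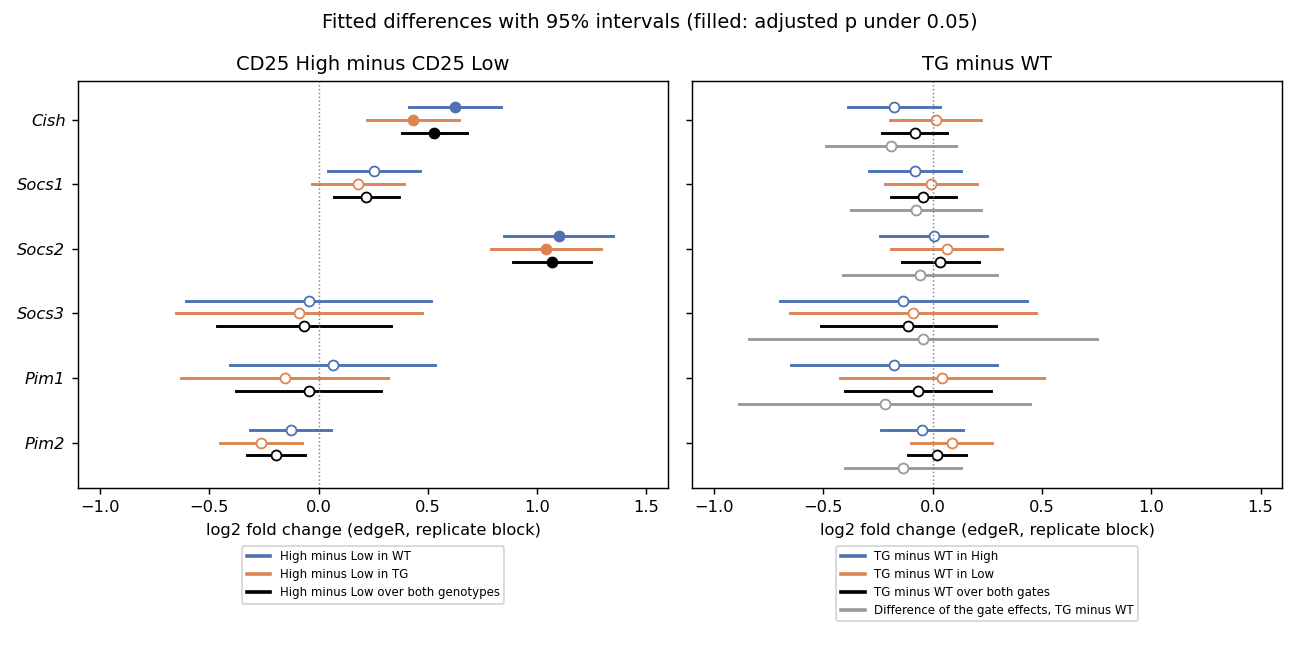
Fitted log2 differences with 95% intervals from the edgeR fit with the replicate block, for CD25 High minus CD25 Low (left) and TG minus WT (right, with the difference of the gate effects in grey); filled points passed at an adjusted p under 0.05. Only Socs2 (1.10 in WT and 1.04 in TG) and Cish (0.62 and 0.43) have filled points, and the right panel has none.

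Replicate number. With the 4 groups held constant, 5 of the 6 genes differed with the replicate number in edgeR, against 34.3% of all tested genes. Socs3 varied most: its mean was 173 CPM in the 4 libraries numbered 1, 375 in those numbered 2 and 244 in those numbered 3 (edgeR adjusted p = 0.0147). Cish (245, 251 and 322 CPM, edgeR adjusted p = 0.0025) and Socs2 (40.9, 39.1 and 49.6 CPM, 0.0213) were highest in number 3, Socs1 was lowest in number 1 (129, 164 and 169 CPM, 0.00376), and Pim2 was lowest in number 3 (55.5, 58.6 and 46.1 CPM, 0.00607). Pim1 did not pass (122, 143 and 172 CPM, edgeR adjusted p = 0.125). In the same comparison 10 of 10 B cell markers were called and were higher in number 1 (median log2 3.46), and the part of other cells in the members' values was not tested. The Socs3 call ended without WT High replicate 1 (edgeR adjusted p = 0.0527), WT Low replicate 1 (0.0503) or TG Low replicate 1 (0.0527). The Socs2 call ended without WT High replicate 3 (0.0603), WT Low replicate 3 (0.0947) or TG Low replicate 3 (0.064), and Pim1 passed without TG Low replicate 3 (0.0105) and in DESeq2 (0.0118).

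The rest of the pathway was read from lists of related genes, over both genotypes with the replicate block, where 3.26% of all tested genes were called higher and 2.63% lower. Of 5 remaining SOCS and PIM genes, 0 were called; Socs5 came nearest (log2 0.23, SE 0.09, edgeR adjusted p = 0.185). Of 11 JAK and STAT genes 1 was called, Stat5a, a STAT that interleukin-2 activates (log2 0.26, SE 0.05, edgeR adjusted p = 0.00929), while Stat5b (0.12, adjusted p = 0.181), Jak1 (0.03, adjusted p = 0.882) and Jak3 (0.04, adjusted p = 0.861) were not. Of 19 cytokine receptor genes 3 were called higher and 2 lower. The higher ones were Il2ra, which encodes the sorted CD25 and is therefore no finding (log2 1.02, SE 0.06), Il2rb, the signalling beta chain (log2 0.85, SE 0.05), and Ifnar1, a type I interferon receptor chain (log2 0.20, SE 0.05). The lower ones were Il6ra, the interleukin-6 receptor (log2 -0.28, SE 0.06, edgeR adjusted p = 0.00939), and Il9r, the interleukin-9 receptor (log2 -1.17, SE 0.13). The shared gamma chain Il2rg had a log2 difference of -0.02 (edgeR adjusted p = 0.913).

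Of 20 other genes regulated by STAT5, 15 had positive and 5 negative values in that fit, with a median log2 difference of 0.23 against 0.0021 over all genes. Of the 20, 10 were called higher and 0 lower. The 10 called included Lrrc32, the surface anchor of latent TGF-beta (log2 0.97, SE 0.06), the TNF receptor family genes Tnfrsf4 (log2 0.63, SE 0.07), Tnfrsf18 (log2 0.34, SE 0.06) and Tnfrsf9 (log2 0.48, SE 0.09), the transcription factor Ikzf4 (log2 0.49, SE 0.06) and the cytokine gene Lta (log2 0.39, SE 0.07). Lrrc32, Ikzf4 and Tnfrsf18 are also regulatory T cell markers. The lists were chosen with earlier results of these data known, so their counts and medians are descriptions and no test. Of 18 genes listed as other inhibitors of cytokine signalling 2 were called higher and 0 lower. These were Dusp4 (log2 0.75, SE 0.12, edgeR adjusted p = 0.00235) and Dusp5 (log2 0.20, SE 0.05, edgeR adjusted p = 0.0288). Both encode phosphatases of MAP kinases, not of JAKs or STATs, and no other gene of that list was called. None of the 6 ubiquitin ligase partners of the SOCS box and none of the 12 PIM substrates and partners was called. Without the block 2 of the receptor genes (Il2ra and Il2rb), 2 of the STAT5-regulated genes (Ikzf4 and Lrrc32) and 0 of the JAK, STAT and inhibitor genes were called.

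Genes with the most similar pattern were ranked by Pearson's r over the 12 libraries, after the mean of the 4 libraries with the same number was subtracted, among 8292 genes averaging 10 CPM or more. These values describe shared variation in libraries that also share depth, cell make-up and gate. Group means were not subtracted, so the CD25 High and Low difference remains in r, and Il2ra encodes the sorted CD25. Socs2 was closest to Ahcyl2 (r = 0.992, Spearman's rho = 0.916), Il2ra (r = 0.9895, rho = 0.881) and Mcub (r = 0.984, rho = 0.846). Cish was closest to Naa40 (r = 0.955), Lta (r = 0.951) and Ikzf4 (r = 0.946), and Socs1 to Xab2 (r = 0.946), Wipi2 (r = 0.942) and Lta (r = 0.929). Among the 6 genes the closest pair was Cish and Socs2 (r = 0.943), and Pim2 ran opposite to Socs2 (r = -0.825) and Cish (r = -0.774). Socs3 was not close to Cish (r = -0.011) or Socs2 (r = -0.166); its nearest genes were Elmod3 (r = 0.971), Arhgap45 (r = 0.953) and Zfp688 (r = 0.941). Pim1 was nearest to Zfp35 (r = 0.946), Grina (r = 0.938) and Spag7 (r = 0.902), and Pim2 to Rfk (r = 0.952), Plekho2 (r = 0.935) and Wsb2 (r = 0.933).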

How the data were processed

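RNA of sorted CD4 T cells was made into cDNA with the SMARTer Ultra Low kit and libraries with Nextera XT, per the labels' protocols. The authors deposited raw read counts per Ensembl gene, as whole numbers, for 12 libraries. CASAVA 1.8.2, STAR 2.4 and featureCounts 1.4.6 with GRCm38 are named in the submitters' processing notes; how these were set is not given in the sources used here. Of 21839 rows, 21628 matched a GENCODE vM21 symbol. Counts were fitted with edgeR 4.0.16 in R 4.3.3: TMM scaling, filterByExpr (minimum count 10; 11766 genes kept), robust quasi-likelihood fits over all libraries with 4 groups as levels, Benjamini-Hochberg adjustment over all tested genes at 0.05. Intervals use the fit's t quantiles. DESeq2 1.42.0, RLE scaling, no filter, the replicate block and left-out libraries were alternatives. The code was tested on simulated data. Replicates of a group differed by more than sampling noise (chi-square per degree of freedom 22.05 to 50.66). Counts carry no molecular identifiers.

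The labels number the replicates 1 to 3 in each group without saying what the number marks. Deviations from the group means correlated at -0.688 to 0.197 between differently numbered libraries of different groups (36 pairs). That range is no separate support for pairing, because the deviations of the 3 libraries of a group sum to 0. Between same-numbered libraries of different groups they correlated at 0.34 to 0.83 (18 pairs), so same-numbered libraries were treated as pairs. This pairing was read from the counts, not from the labels.

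The 6 genes, the lists and the rules for named genes were chosen with earlier results of these data known. Named were the 6 genes, the rest of their families, interleukin-2 receptor, JAK and STAT5 genes, up to 6 genes of each list called with the block (otherwise those with the smallest p), and the 3 genes most like each of the 6 by Pearson's r of log2(CPM + 1). Promoter sequences are from RefSeq (GRCm38.p6).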

Additional observations from a re-analysis of the deposited data

Results flagged for a closer look

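In groups of 6 libraries (each gate and each genotype, 24 groups over the 6 genes), the highest or lowest library was compared with its nearest neighbour by Dixon's ratio, which chance exceeds in about 1 in 20 groups. Of these, 2 values stood apart. Socs3 in WT High replicate 2, at 446 CPM, lay far above the other CD25 High libraries, which ran from 177 to 272 CPM; WT Low replicate 2 was higher still, at 462 CPM. Socs1 in TG Low replicate 1, at 109 CPM, lay below the other TG libraries, which ran from 151 to 175 CPM; WT Low replicate 1 had a like value, 108 CPM.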

How the results depend on the processing

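Of the 6 genes, the count called between gates (0 in WT, 0 in TG and 1 over both genotypes without the replicate block) was 2, 2 and 2 with the replicate block, also with RLE scaling or no low-count filter added to it and in DESeq2 with the block. DESeq2 without the block gave 1, 1 and 2. Without the 4 libraries numbered 1 the counts were 0, 0 and 0, and 1, 1 and 2 with the block. Leaving out each library in turn gave counts of 0 to 2 in WT, 0 to 2 in TG and 1 to 3 over both genotypes, both fits pooled, the 3 being without TG High replicate 2. Socs2 and Cish were higher in CD25 High under each alternative run. Genotype comparisons and the difference of the gate effects called 0 of the 6 genes, and replicate number 5, within 1.5 times, under each alternative run. Pairing changed no other call of the 6 genes.

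Across all genes, edgeR called 6 genes in WT, 1 in TG and 61 over both genotypes without the block, 192, 198 and 692 with it, and 49, 39 and 177 with it but without the libraries numbered 1. DESeq2 called 47, 56 and 254 without the block and 271, 334 and 824 with it. For TG against WT over both gates edgeR called 0 without the block, 6 with it and 12 with it and no low-count filter, and DESeq2 with the block called 38. With RLE scaling the median log2 difference of all genes was at most 0.014 in any comparison, against at most 0.011 with TMM, both without the block.

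Values that changed direction were all uncalled, and the cause was not tested. Without the libraries numbered 1 the log2 differences, without and with the block, were 0.086 and 0.068 for the gate over both genotypes in Pim1. For TG against WT they were -0.062 and -0.065 (Socs2) and -0.072 and -0.048 (Pim1) in CD25 Low, and -0.037 and -0.039 (Socs2) and -0.032 and -0.022 (Pim2) over both gates. For the difference of the gate effects they were 0.049 and 0.054 (Socs2). Socs2 in CD25 High, TG against WT, was 0.0050 with the block, 0.0019 with RLE scaling (0.0078 with the block), 0.0022 unfiltered with the block, 0.0043 with only the groups compared, 0.0023 in DESeq2 and 0.0079 in DESeq2 with the block. Cish in CD25 Low, TG against WT, was 0.013 with the block, 0.015 with RLE scaling and the block, 0.013 unfiltered with the block and 0.015 in DESeq2 with the block.

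Leaving out each library in turn, both fits pooled, these uncalled log2 differences crossed 0. Between gates they ran from -0.57 to 0.48 (Socs3) and -0.11 to 0.32 (Pim1) in WT, and from -0.0084 to 0.29 (Socs1), -0.45 to 0.19 (Socs3) and -0.41 to 0.039 (Pim1) in TG. Over both genotypes they ran from -0.38 to 0.14 (Socs3) and -0.16 to 0.10 (Pim1). TG against WT in CD25 High ran from -0.21 to 0.030 (Socs1), -0.11 to 0.12 (Socs2), -0.51 to 0.25 (Socs3), -0.48 to 0.017 (Pim1) and -0.13 to 0.068 (Pim2). In CD25 Low the ranges were -0.17 to 0.21 (Cish), -0.18 to 0.15 (Socs1), -0.12 to 0.24 (Socs2), -0.42 to 0.40 (Socs3), -0.10 to 0.25 (Pim1) and -0.038 to 0.18 (Pim2). Over both gates they were -0.17 to 0.014 (Cish), -0.14 to 0.030 (Socs1), -0.059 to 0.12 (Socs2), -0.35 to 0.062 (Socs3), -0.24 to 0.035 (Pim1) and -0.045 to 0.075 (Pim2). The difference of the gate effects ran from -0.25 to 0.082 (Socs1), -0.24 to 0.12 (Socs2) and -0.67 to 0.38 (Socs3). Each of the 6 genes had at least 343 counts in every library. TG High replicate 2 had the fewest total counts, and the part of depth in these values was not tested. With 3 libraries a group, precision is limited.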
